A study of Mus musculus with 4 samples.

Results

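In mouse sympathetic ganglia, 103 of 12752 genes differed in the same direction in both mutant libraries of the study, with 34 genes higher in both and 69 genes lower in both. These genes were selected on the measured values themselves. A gene had to be listed in all 4 tables with a mean of at least 1 FPKM, which divides the reads of a gene by its length and by the size of the library. Its log2 ratio of (FPKM + 0.1) then had to reach 0.5, with the same sign, in AdNTF3-Tg against WT_2 and in TRKC+/- against WT_1. Since these ratios chose the genes, they are given here as a description and were not tested.

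The study asked how neurotrophin-3 (NT-3) and its receptor TRKC act on the sympathetic nerves that supply brown fat in the cold. Ganglia from thoracic levels T1 to T4 were taken from C57BL/6 mice aged 12 weeks that had spent 1 day at 5 °C. RNA from 6 mice was pooled into 1 library for each of 4 groups, named AdNTF3-Tg, TRKC+/-, WT_1 and WT_2. AdNTF3-Tg mice carry an NT-3 transgene under an adiponectin promoter, which is active in fat cells, and TRKC+/- mice have 1 functional copy of the receptor gene in every tissue. WT_1 and WT_2 are separate pools without either change, and which of them stood as the control of which mutant was set by the selection rule. With 1 pool per group there was no replicate and no p-value, and the differences between animals are inside the pools.

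The tables held between 8665955 and 8894985 reads on genes per library. Ntrk3, the gene of TRKC, had 78 reads in WT_1, 91 in TRKC+/-, 83 in WT_2 and 76 in AdNTF3-Tg, so that its count was not lower in the library labelled TRKC+/-, and that name is used below only as the label. The tables give 1 count per gene and do not separate the alleles. In a separate measurement, the paper reports reduced Trkc expression in sympathetic ganglia of TRKC+/- mice against their wild-type littermates. Ntf3, the gene of NT-3, had 2 reads in the library labelled TRKC+/- and was at 0 in the other 3 libraries. Th and Dbh, which encode enzymes of noradrenaline synthesis and mark sympathetic neurons, stood between 2576 and 2753 FPKM and between 2100 and 2170 FPKM across the 4 libraries.

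A sympathetic ganglion holds noradrenergic neurons wrapped in satellite glia, with Schwann cells along their axons, blood vessels, connective tissue and resident macrophages. NT-3 binds the receptor kinase TRKC and is known for its part in the survival and growth of sympathetic and sensory neurons. In bulk RNA, the level of a gene sums over all of these cells, so that fewer cells of a type and less RNA per cell cannot be told apart.

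Promoter sequences were read for the members whose start site a reader may want to look at beside their values. RefSeq windows on GRCm38.p6, from 250 bases before to 50 bases after the start, were found for 72 of the 103 members, 24 higher and 48 lower. They are shown for Dio2 and Chil3, from the brown fat and leukocyte genes lower in both, for Sox8 from the genes higher in both, and for Snurf, whose window is also one of those of Snrpn. Capitals mark, on either strand, TGACGTCA (the cAMP response element) and TATAAA (the TATA box) in Dio2, TATAAA in Chil3, and CACGTG (an E-box) and GGGCGG (the GC box) in Sox8. TATAAA was also searched in the Snurf window and was not in it.
Dio2, chr12:90738989-90739288, minus strand: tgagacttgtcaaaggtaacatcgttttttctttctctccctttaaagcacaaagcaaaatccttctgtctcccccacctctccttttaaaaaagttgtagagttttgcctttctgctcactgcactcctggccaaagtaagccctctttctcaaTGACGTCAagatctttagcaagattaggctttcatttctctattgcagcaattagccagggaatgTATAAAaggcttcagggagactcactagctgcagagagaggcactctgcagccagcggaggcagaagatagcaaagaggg
Chil3, chr3:106167515-106167814, minus strand: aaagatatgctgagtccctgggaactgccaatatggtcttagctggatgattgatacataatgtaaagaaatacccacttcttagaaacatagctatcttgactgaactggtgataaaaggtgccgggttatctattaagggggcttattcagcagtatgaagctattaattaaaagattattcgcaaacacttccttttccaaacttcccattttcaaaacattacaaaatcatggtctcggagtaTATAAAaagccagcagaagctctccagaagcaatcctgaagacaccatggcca
Sox8, chr17:25570637-25570936, minus strand: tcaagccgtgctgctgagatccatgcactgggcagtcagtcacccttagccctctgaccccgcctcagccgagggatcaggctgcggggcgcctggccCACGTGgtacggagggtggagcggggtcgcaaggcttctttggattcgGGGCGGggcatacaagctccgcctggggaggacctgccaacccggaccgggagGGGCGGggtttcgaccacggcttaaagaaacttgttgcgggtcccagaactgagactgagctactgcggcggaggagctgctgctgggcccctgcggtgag
Snurf, chr7:60005150-60005449, minus strand: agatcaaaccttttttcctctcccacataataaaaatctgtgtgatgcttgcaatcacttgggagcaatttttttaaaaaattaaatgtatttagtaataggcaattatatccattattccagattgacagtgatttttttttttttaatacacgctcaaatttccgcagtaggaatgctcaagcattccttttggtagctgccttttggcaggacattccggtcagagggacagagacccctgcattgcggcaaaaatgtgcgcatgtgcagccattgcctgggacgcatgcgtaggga
TGACGTCA begins 95 bases before the start of Dio2, and TATAAA begins 30 bases before it, whereas the TATAAA of Chil3 begins 3 bases before the annotated start. The element TGACGTCA was found in 4 of the 48 lower members with a window (Dio2, Gm4262, Kif17 and Znrd1) and in 1 of the 24 higher ones (I730030J21Rik), against 3.66% of the 10116 genes of this level with a window and 1.79% of all 32851 windows. TATAAA was found in 4 of 48 and 2 of 24, against 8.49% of genes and 13.6% of windows. GGGCGG was found in 18 of 48 lower and 13 of 24 higher members, against 69.7% of genes and 35.7% of windows, and CACGTG in 3 of 48 and 3 of 24, against 11.7% of genes and 7.15% of windows. Other motifs were searched too. TGANTCA (the AP-1 site) was in 6 of 48 lower and 1 of 24 higher members, against 6.04% of genes. In the same order, GAANNTTC (the heat shock element) was in 5 and 2, against 6.81%, and CCAAT in 17 and 12, against 42.6%. GCGGGGGCG (an EGR site) was in 3 and 0, against 6.71%, and GAGGAAGT (a PU.1 type site) in 3 and 0, against 3.36%. The motifs can overlap each other, a match is a run of letters and not a site of binding, and a gene with several windows was counted once if any of them held the motif.

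**Figure D1:**
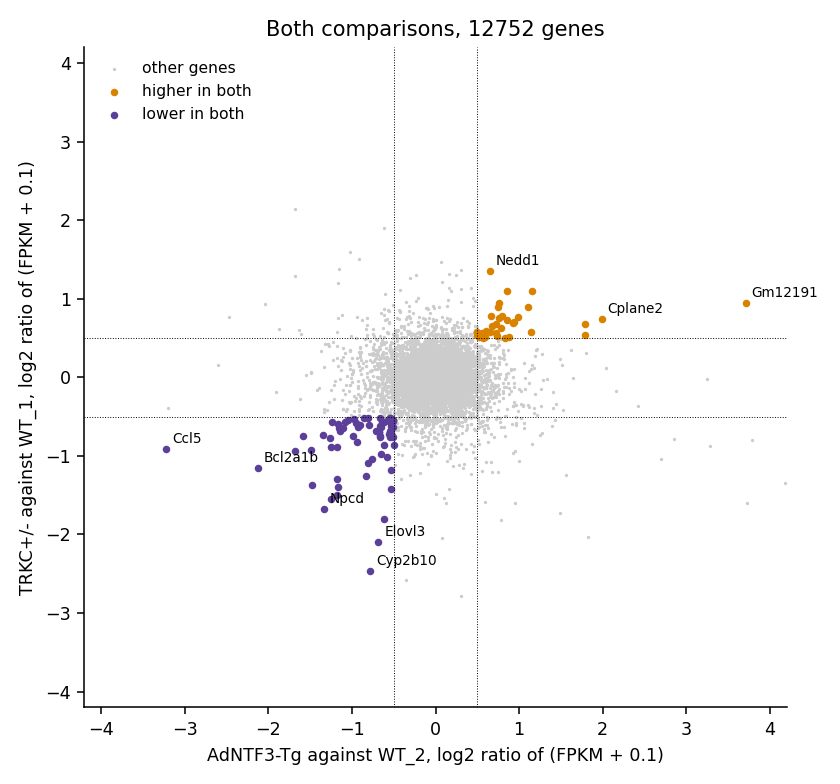
Log2 ratios of (FPKM + 0.1) in AdNTF3-Tg against WT_2 (x axis) and in TRKC+/- against WT_1 (y axis), 1 point per gene, with dotted lines at 0.5 and -0.5. The 34 orange and 69 purple points in the outer corners are the genes higher and lower in both, and 1 gene that is not among them lies beyond the axes.

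The background of these counts was small in each comparison alone. In AdNTF3-Tg, 396 genes (3.11%) were higher and 517 (4.05%) lower than in WT_2 by at least 0.5 (log2). For the library labelled TRKC+/-, 265 genes (2.08%) were higher and 359 (2.82%) lower than in WT_1. The genes higher in both made up 0.267% and those lower in both 0.541% of the 12752 genes, while 110 genes passed the same limits in opposite directions. The median log2 ratio of all genes was 0.0025 in AdNTF3-Tg and 0.0042 in TRKC+/-, on values that the authors had already scaled to library size.

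Counting error was described by the exact Clopper-Pearson 95% interval of each log2 ratio, taken from the reads and the totals of the libraries compared, which covers the sampling of reads and nothing else. This interval excluded 0 in both comparisons for 27 members, 18 lower and 9 higher, in 1 comparison for 31 and in neither for 45. Over all 12752 genes, whatever the size of the ratio, the interval lay below 0 in both comparisons for 2.29% and above 0 in both for 1.53%. The intervals use the reads that chose the members, so nothing follows from their share. Where 2 ratios or intervals of a gene are given together below, that of TRKC+/- comes first unless another order is stated.

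**Figure D2:**
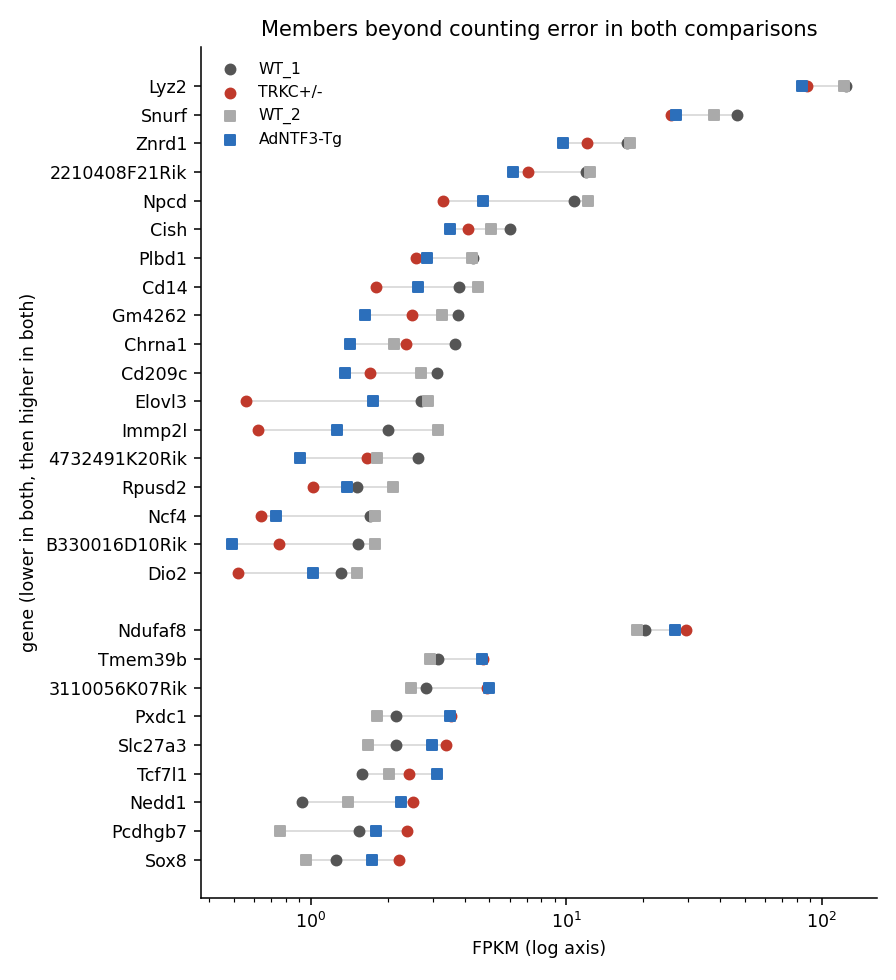
FPKM (log axis) of the 27 members whose counting interval excluded 0 in both comparisons, 1 point per library, with the 18 genes lower in both above the 9 higher in both. Circles are WT_1 and TRKC+/-, squares WT_2 and AdNTF3-Tg, and the grey line joins the lowest and the highest library, with Chrna1 the 1 gene whose mutant and wild-type points interleave.

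Genes known from leukocytes were 18 of the 69 lower members and 1, Lcn2, of the 34 higher ones, by roles assigned to the members by hand with their values in view. How many of the 12752 genes have such a role was not counted. Lyz2, the lysozyme of macrophages and neutrophils, was the most abundant of all 103 members. It stood at 125 FPKM in WT_1 and 122 in WT_2, and at 87.5 in TRKC+/- and 83.7 in AdNTF3-Tg, so that both mutant libraries lay below both wild-type libraries. Its log2 ratio was -0.51 in TRKC+/- (interval -0.66 to -0.39) and -0.54 in AdNTF3-Tg (interval -0.68 to -0.41), from 729 to 1092 reads per library. Both ratios were near the limit: against WT_2, TRKC+/- was at -0.48, and with a trend on transcript length removed the ratios were -0.45 in both comparisons, short of it. Some Lyz2 reads were divided with another gene by the authors' counting, since its count was not whole in 2 libraries. Lyz1, its close paralog, had 105, 66, 100 and 77 reads in WT_1, TRKC+/-, WT_2 and AdNTF3-Tg.

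Cd14, the co-receptor for bacterial lipopolysaccharide on myeloid cells, stood at 3.82, 1.80, 4.5 and 2.62 FPKM in WT_1, TRKC+/-, WT_2 and AdNTF3-Tg, with log2 ratios of -1.04 (interval -1.88 to -0.35) and -0.76 (interval -1.45 to -0.14). Ncf4, a subunit of the phagocyte NADPH oxidase, stood at 1.71, 0.64, 1.78 and 0.73 FPKM in the same order, from 21, 8, 22 and 9 reads. Both wild-type libraries were nearly equal for Ncf4, and both mutant libraries were too. Its log2 ratios were -1.29 in TRKC+/- and -1.18 in AdNTF3-Tg, and their intervals reached to -0.20 and -0.11.

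Cd209c, a C-type lectin, stood at 3.11, 1.71, 2.71 and 1.36 FPKM in WT_1, TRKC+/-, WT_2 and AdNTF3-Tg. Plbd1, a phospholipase B-like protein of granulocytes and monocytes, stood at 4.31, 2.58, 4.26 and 2.86 FPKM. Cish, an inhibitor of cytokine signalling that cytokines themselves induce, stood at 6.05, 4.11, 5.07 and 3.52 FPKM. In these 3 genes the 2 wild-type libraries lay above the 2 mutant libraries, and the counting intervals excluded 0 in both comparisons, most narrowly for Plbd1 in AdNTF3-Tg (-1.14 to -0.03).

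Of the other 12 leukocyte genes lower in both, 7 were beyond counting error in AdNTF3-Tg and not in TRKC+/-, and 5 in neither comparison. Cd52, a surface glycoprotein of lymphocytes and myeloid cells, stood at 13.2, 9.07, 15.1 and 7.62 FPKM in WT_1, TRKC+/-, WT_2 and AdNTF3-Tg. Chil3, a chitinase-like protein secreted by macrophages, stood at 3.57, 2.38, 6.03 and 2.50 FPKM. Folr2, the folate receptor of tissue macrophages, stood at 3.96, 2.60, 4.83 and 2.10 FPKM. In all 3 the log2 ratio in AdNTF3-Tg was about -1 (-0.98, -1.24 and -1.16), while that in TRKC+/- was between -0.59 and -0.54 with an interval that included 0. Il3ra, the alpha subunit of the interleukin-3 receptor, had ratios of -1.11 in AdNTF3-Tg and -0.64 in TRKC+/-. No test of the difference between the 2 comparisons was possible.

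Ccl5, Bcl2a1b, Ltc4s and Il25 rested on fewer than 20 reads in every library. Ccl5, a chemokine that attracts T cells and monocytes, had the most negative ratio of any member in AdNTF3-Tg (-3.22, interval -9.10 to -0.96), but from 13 reads in WT_2 and 1 in AdNTF3-Tg, with 6 in WT_1 and 3 in TRKC+/-. Bcl2a1b, a member of the BCL2 family that blocks cell death, had 17.8, 7.75, 17.4 and 3.51 estimated reads in WT_1, TRKC+/-, WT_2 and AdNTF3-Tg, and it has near-identical copies in the genome that share its reads. Ltc4s, which makes leukotriene C4, had between 5 and 16 reads, and the cytokine gene Il25 between 7 and 14. Lrrc25, Selplg, Cklf and the class I histocompatibility gene H2-Q9, with 17 to 66 reads per library, had ratios between -0.71 and -0.53 in both comparisons, with intervals that included 0 throughout. Lcn2, a siderophore-binding protein of neutrophils, had 7, 11, 9 and 13 reads and log2 ratios of 0.58 in TRKC+/- and 0.50 in AdNTF3-Tg, whose intervals included 0.

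**Figure D3:**
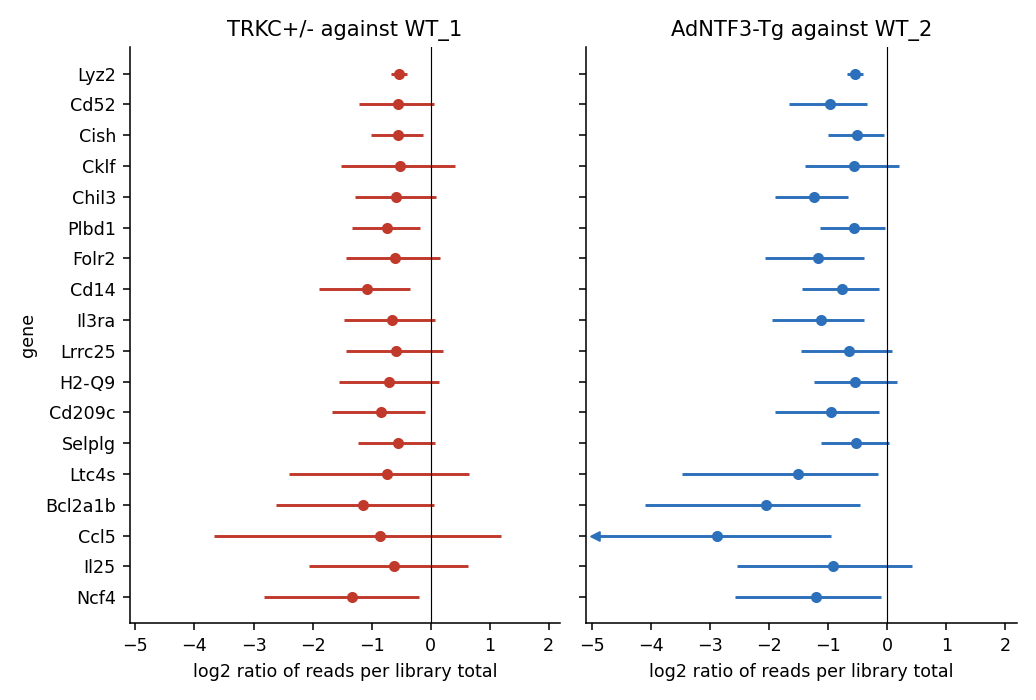
Log2 ratio of library-scaled reads with its exact 95% counting interval for the 18 leukocyte genes lower in both, in TRKC+/- against WT_1 (left) and AdNTF3-Tg against WT_2 (right), ordered by mean FPKM; the arrow marks the Ccl5 interval, which runs beyond the axis to -9.10. The interval is narrowest for Lyz2, and the bar stops short of 0 on both sides for 6 of the 18 genes.

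Of a list of 18 macrophage markers, Lyz2 and Cd14 passed the limit in both comparisons, and no other did. Of the 18, 4 were lower and 2 higher by at least 0.5 in AdNTF3-Tg, and 4 were lower and none higher in TRKC+/-, with median log2 ratios of -0.20 and -0.11 beside 0.0025 and 0.0042 over all genes. The ratio was negative in both comparisons for 10 of the 18 and positive in both for 1, against 3292 and 3501 of all 12752 genes. Both mutant libraries lay below both wild-type libraries for 6 of the 18 (33.3%) and above them for 0, against 16.0% each way over all genes. Lyz2 and Cd14, which the rule chose, are included in all of these counts and medians. Without Lyz2 and Cd14 the summed FPKM of the list was 215 in WT_1, 191.6 in TRKC+/-, 183 in WT_2 and 160.0 in AdNTF3-Tg. None of the 18 markers was at 0 in any library. C1qa, a complement subunit that macrophages make, stood at 52.4, 45.0, 42.1 and 34.1 FPKM, while Csf1r, the receptor for macrophage growth factor, stood at 13.0, 11.9, 10.7 and 11.9 FPKM and was not lower in both. Of the lists of other leukocytes, 2 lymphocyte genes were tested and neither passed the limit in either comparison, and of 4 neutrophil and mast cell genes 2 were higher and 1 lower in AdNTF3-Tg and none in TRKC+/-, so that neither list held a member. The part that the number of macrophages in the pools had in the leukocyte members was not tested.

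The 3 brown fat genes lower in both included the 2 largest differences of any member in the library labelled TRKC+/-, those of Cyp2b10 and Elovl3. Elovl3, a fatty acid elongase that brown fat induces in the cold, stood at 2.71 FPKM in WT_1 and 0.56 in TRKC+/-, and at 2.87 in WT_2 and 1.75 in AdNTF3-Tg. Its log2 ratio was -2.09 in TRKC+/- (interval -3.52 to -1.24) and -0.68 in AdNTF3-Tg (interval -1.44 to -0.00085), so that the second one barely cleared counting error. Cyp2b10, a cytochrome P450, stood at 1.83 and 1.81 FPKM in WT_1 and WT_2, at 0.25 in TRKC+/- and at 1.01 in AdNTF3-Tg, with ratios of -2.46 (interval -4.86 to -1.39) and -0.78 (interval -1.83 to 0.08). Dio2, the deiodinase that activates thyroid hormone inside brown fat cells and whose promoter is printed above, stood at 1.31, 0.52, 1.52 and 1.02 FPKM in WT_1, TRKC+/-, WT_2 and AdNTF3-Tg. The wild-type libraries were close for all 3 genes, and the 2 mutant libraries were apart, with TRKC+/- the lowest each time.

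Fat cell markers differed more in TRKC+/- than in AdNTF3-Tg. Ucp1, the uncoupling protein that defines brown fat, stood at 47.3 FPKM in WT_1, 7.80 in TRKC+/-, 48.1 in WT_2 and 37.8 in AdNTF3-Tg, and with a log2 ratio of -0.35 in AdNTF3-Tg it was not a member. Fabp4, a fatty acid carrier of fat and endothelial cells, stood at 244, 134, 225 and 173 FPKM in the same order. In AdNTF3-Tg the log2 ratio was -0.35 for Cox7a1, -0.02 for Cidea, 0.01 for Cox8b and 0.08 for Plin1, and Adipoq, the adiponectin gene, stood higher in TRKC+/- (9.0 FPKM) than in WT_2 (7.56). Of 24 adipocyte genes tested, 10 were lower and none higher by at least 0.5 in TRKC+/-, and 2 were lower and 1 higher in AdNTF3-Tg, with medians of -0.44 and -0.12. The log2 ratio was negative in both comparisons for 16 of the 24, against 3292 of all 12752 genes, and 12 of the 24 lay below both wild-type libraries in both mutant libraries, against 16.0% of all genes. The summed FPKM of the 25 genes on the list was 721 in WT_1, 478 in TRKC+/-, 603 in WT_2 and 522 in AdNTF3-Tg, and none was at 0 in any library. The part that the share of fat tissue in each pool had in these members was not tested.

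Among 3 genes of muscle, the order of the libraries was less regular. Chrna1, the alpha subunit of the acetylcholine receptor of skeletal muscle, stood at 3.68 FPKM in WT_1 and 2.36 in TRKC+/-, and at 2.12 in WT_2 and 1.43 in AdNTF3-Tg. Its log2 ratios were -0.62 and -0.54, yet TRKC+/- lay above WT_2, and it was the 1 lower member beyond counting error in both comparisons whose mutant libraries did not both lie below the wild-type ones. Klhl41, a protein of the sarcomere, had the same order, at 2.80, 1.38, 1.25 and 0.76 FPKM. Nexn, which binds actin filaments, stood at 1.59, 0.98, 1.53 and 0.63 FPKM, with both mutant libraries lowest. Of 17 other skeletal muscle genes tested, none passed in the same direction in both comparisons: 11 were higher in AdNTF3-Tg (median 1.57), and 15 were lower in TRKC+/- (median -0.79). The summed FPKM of that list was 183 in WT_1 and 48.4 in WT_2, so that the wild-type pools differed more than either differed from its mutant.

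Npcd had the most reads of any member with a log2 ratio past 1 in both comparisons, and its value depends on how reads were divided. It is a read-through gene that runs across Cbx6 and Nptxr, the latter a receptor for neuronal pentraxins at synapses. Npcd had 422 estimated reads in WT_1, 138 in TRKC+/-, 488 in WT_2 and 189 in AdNTF3-Tg, with log2 ratios of FPKM of -1.67 (interval -1.94 to -1.37) and -1.34 (interval -1.61 to -1.12). Nptxr moved the other way, with 1995, 2404, 1828 and 2288 reads in the same order. Summed over Npcd and Nptxr, the reads were 2417, 2541, 2316 and 2477, and the log2 ratio of the sum was 0.03 in TRKC+/- (interval -0.05 to 0.12) and 0.10 in AdNTF3-Tg (interval 0.02 to 0.19). With Cbx6 added, the sum was 5625, 6023, 5613 and 5938 reads, and its log2 ratios were 0.06 (interval 0.01 to 0.11) and 0.09 (interval 0.04 to 0.14), both beyond counting error. The share of the sum with Nptxr given to Npcd was 17.5% in WT_1 and 21.1% in WT_2 but 5.42% in TRKC+/- and 7.64% in AdNTF3-Tg. The total thus differed by less than its division between the transcripts did.

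Snurf, an upstream reading frame carried on the same transcript as the splicing protein gene Snrpn of the imprinted Prader-Willi region, was of the same kind. Both symbols share the promoter window printed above. Snurf had 780 reads in WT_1, 437 in TRKC+/-, 641 in WT_2 and 450 in AdNTF3-Tg, with log2 ratios of FPKM of -0.86 and -0.50. Snurf and Snrpn together had 5787, 5974, 5904 and 5692 reads in the same order, and the intervals of both ratios of the sum included 0 (-0.04 to 0.06 and -0.10 to 0.01). Snurf took 13.5% and 10.9% of the sum in WT_1 and WT_2, and 7.31% and 7.90% in TRKC+/- and AdNTF3-Tg. Npcd and Snurf are therefore uncertain as members, although both lay beyond counting error when counted alone.

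**Figure D4:**
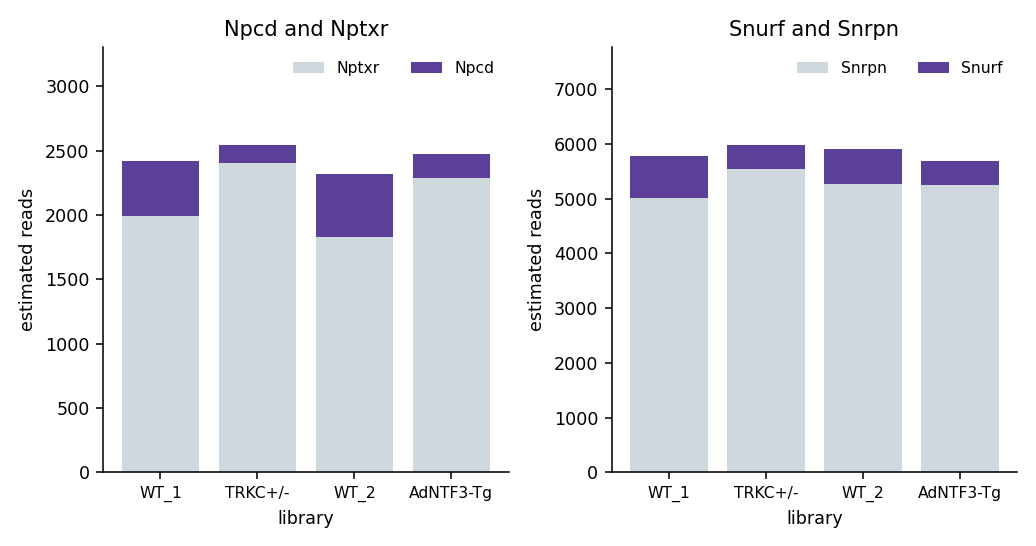
Estimated reads (y axis) in the 4 libraries (x axis) for Npcd (purple) stacked on Nptxr (grey), left, and Snurf (purple) stacked on Snrpn (grey), right. The purple part is smaller in TRKC+/- and AdNTF3-Tg than in WT_1 and WT_2, while the height of the whole bar varies between 2316 and 2541 reads on the left and between 5692 and 5974 on the right.

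Other neuronal genes among the lower members were Doc2a, a calcium sensor of vesicle release, at 2.94, 1.75, 2.81 and 1.91 FPKM in WT_1, TRKC+/-, WT_2 and AdNTF3-Tg, and Kif17, a kinesin that carries receptors into dendrites, at 1.75, 1.15, 1.76 and 1.11 FPKM. For both, the wild-type libraries agreed closely and the mutant libraries did too. The length that the authors' counting gave to Kif17 differed by 1.11 times between libraries, and its log2 ratio from reads alone was -0.47 in TRKC+/-, short of the limit. Tac2, the precursor of neurokinin B, had 6, 4, 13 and 6 reads. None of 22 sympathetic neuron genes passed the limit in either comparison, with medians of -0.03 in AdNTF3-Tg and 0.03 in TRKC+/-. Of 37 neurotrophin and GDNF signalling genes tested, none was a member.

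By the roles assigned by hand, none of which was counted over all genes, 6 enzymes and carriers were lower in both and 2 were higher. Immp2l, a peptidase of the inner mitochondrial membrane, stood at 2.0, 0.62, 3.15 and 1.27 FPKM in WT_1, TRKC+/-, WT_2 and AdNTF3-Tg, with log2 ratios of -1.54 and -1.25 whose intervals reached to -0.32 and -0.31. Fbp1, an enzyme of gluconeogenesis, stood at 1.45, 0.55, 1.36 and 0.72 FPKM from 7 to 18 reads. Slc6a12, a transporter of betaine and GABA, stood at 1.79, 0.94, 1.58 and 1.00 FPKM. The aldo-keto reductase Akr1c13, the xylulose reductase Dcxr and the ethanolamine kinase Etnk2 had log2 ratios between -0.70 and -0.51, with intervals that included 0 in both comparisons. In all 6 lower genes both mutant libraries lay below both wild-type libraries.

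Genes that make, modify or encode functional RNA, with the ribosomal protein copy Rpl32l, were 7 of the lower members and 1, Rpph1, of the higher ones, again by hand-assigned roles. Znrd1, a subunit of RNA polymerase I, stood at 17.2 and 17.7 FPKM in WT_1 and WT_2, at 12.0 in TRKC+/- and at 9.75 in AdNTF3-Tg. Its log2 ratios were -0.52 (interval -1.01 to -0.08) and -0.86 (interval -1.38 to -0.37), and it was among the more abundant members. With the trend on transcript length removed, the ratio in TRKC+/- was -0.40, short of the limit, as were Cish (-0.49) and Snurf (-0.46) in AdNTF3-Tg. Rpusd2, a pseudouridine synthase, stood at 1.52, 1.02, 2.09 and 1.39 FPKM, so that AdNTF3-Tg was only slightly below WT_1. Its mitochondrial relative Rpusd3 stood at 2.84, 1.95, 5.27 and 3.59 FPKM, and there AdNTF3-Tg was above WT_1. The noncoding Rn4.5s had 12, 4, 7 and 3 reads and Rnu1a1 (a copy of the U1 small nuclear RNA) 8, 4, 3 and 1, and as RNAs without a poly(A) tail they are poorly caught by the oligo(dT) selection used here. No fold is given for Rnu1a1 in AdNTF3-Tg or for the RNase P RNA Rpph1 in TRKC+/-, since both libraries of those comparisons held 3 reads or fewer.

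Long noncoding RNAs made up 11 of the lower and 7 of the higher members. Together they were 17.5% of the members and 2.45% of the 12752 genes, or 6.15% of the 3529 genes with a mean between 1 and 5 FPKM, where 91 of the 103 members lie. Among the lower ones, 2210408F21Rik stood at 12.0, 7.08, 12.4 and 6.20 FPKM in WT_1, TRKC+/-, WT_2 and AdNTF3-Tg. B330016D10Rik stood at 1.53, 0.75, 1.79 and 0.49 FPKM, with log2 ratios of -0.94 (interval -2.08 to -0.06) and -1.68 (interval -3.12 to -0.77). The wild-type libraries were close in both RNAs. 4732491K20Rik, at 2.62, 1.66, 1.82 and 0.91 FPKM, and Gm4262, at 3.78, 2.5, 3.25 and 1.63 FPKM, were also beyond counting error in both comparisons, and Gm4262 had reads divided with other genes. Against WT_2, however, TRKC+/- was at -0.13 for 4732491K20Rik and -0.37 for Gm4262, short of the limit. Among the higher ones, 3110056K07Rik stood at 2.82, 4.88, 2.47 and 4.98 FPKM and Dancr, a host of small nucleolar RNAs, at 1.29, 2.88, 1.52 and 2.82 FPKM, each with the mutant libraries well apart from the wild-type ones. The read counts behind Dancr were 11, 25, 13 and 24, and its interval in AdNTF3-Tg included 0. Still fewer reads stood behind I730030J21Rik (6, 10, 7 and 13), 0610040B10Rik (4, 7, 7 and 12) and 1700047M11Rik (4, 8, 4 and 7). The interval included 0 in both comparisons for these 3 RNAs, and 0610040B10Rik was level in TRKC+/- and WT_2.

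The 34 members higher in both were less abundant, with a median of 1.60 FPKM against 2.22 for the lower ones. Ndufaf8, an assembly factor of mitochondrial complex I, was the most abundant at 20.3 FPKM in WT_1, 29.5 in TRKC+/-, 18.9 in WT_2 and 26.7 in AdNTF3-Tg, with log2 ratios of 0.54 (interval 0.08 to 0.94) and 0.50 (interval 0.05 to 0.96). Among 51 genes of mitochondrial NADH dehydrogenase and ATP synthase, none passed the limit in either comparison and both medians were -0.16. The ratio was negative in both comparisons for 47 of the 51, and 36 of them (70.6%) lay below both wild-type libraries in both mutant libraries, against 16.0% of all genes, so that Ndufaf8 differed in the opposite direction from most of that list. Medians were also negative for all genes from 500 to 1000 bases long, at -0.11 in TRKC+/- and -0.13 in AdNTF3-Tg. For 99 ribosomal protein genes or copies they were -0.16 and -0.19. The part of transcript length in the shift of the mitochondrial list was not tested. Slc27a3, of the fatty acid transport and acyl-CoA synthetase family, stood at 2.16, 3.38, 1.68 and 2.97 FPKM.

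Of 3 members that encode transcription factors, Sox8 and Tcf7l1 were higher in both and the zinc finger gene Zfp11 was lower in both, at 1.44, 0.95, 1.09 and 0.71 FPKM in WT_1, TRKC+/-, WT_2 and AdNTF3-Tg. Sox8, a relative of Sox10 expressed in glia, stood at 1.25, 2.21, 0.96 and 1.74 FPKM in WT_1, TRKC+/-, WT_2 and AdNTF3-Tg, from 32, 58, 25 and 45 reads, with log2 ratios of 0.77 (interval 0.17 to 1.49) and 0.80 (interval 0.12 to 1.62). Both mutant libraries lay above both wild-type libraries. Sox10, which defines the glia of the peripheral nervous system, stood at 42.5, 50.3, 36.8 and 41.3 FPKM, so that AdNTF3-Tg lay below WT_1, and its log2 ratios were 0.24 and 0.17. None of 12 satellite glia genes passed the limit, with medians of 0.05 in TRKC+/- and 0.13 in AdNTF3-Tg. Tcf7l1, which acts in WNT signalling, stood at 1.58, 2.43, 2.03 and 3.13 FPKM, in an order that also put both mutant libraries on top.

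Nedd1, Ccdc65, Cplane2 and Whrn, genes of the centrosome, cilium or hair cell, were higher in both, while Ttll3, a tubulin glycylase of cilia, and Kif17, described above, which also acts in cilia, were lower in both. The listed length of Ttll3 differed 1.25 times between libraries, and its log2 ratio from reads was -0.32 in TRKC+/-, short of the limit. Nedd1, which brings gamma-tubulin to the centrosome, had the largest ratio of the higher members in TRKC+/-. It stood at 0.92, 2.51, 1.40 and 2.25 FPKM in WT_1, TRKC+/-, WT_2 and AdNTF3-Tg, from 28, 78, 43 and 69 reads, with log2 ratios of 1.36 (interval 0.80 to 2.12) and 0.65 (interval 0.12 to 1.27). Ccdc65, of the regulatory complex of motile cilia, stood at 1.51, 2.28, 2.12 and 3.57 FPKM. Cplane2, which acts in cilium assembly, had 8, 14, 3 and 14 reads. The scaffold protein gene Whrn had a log2 ratio of 0.51 in TRKC+/- by FPKM and 0.28 by reads, its listed length being up to 1.19 times longer in one library than in another.

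Neuronal genes higher in both were Kcnk18, Nrg2 and Pcdhgb7. Kcnk18, the background potassium channel TRESK, stood at 1.04, 1.70, 0.95 and 1.57 FPKM in WT_1, TRKC+/-, WT_2 and AdNTF3-Tg, and its intervals just included 0 (-0.02 to 1.44 and -0.03 to 1.5). Nrg2, a neuregulin that binds ERBB receptors, stood at 1.69, 2.54, 2.28 and 3.40 FPKM. Pcdhgb7, a clustered protocadherin of neuronal recognition, stood at 1.55, 2.37, 0.76 and 1.80 FPKM, and its wild-type libraries thus differed from each other by more than TRKC+/- differed from WT_1. It shares 3' exons with the other genes of its cluster, and its count was not whole, so that its reads are uncertain.

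Receptor genes higher in both were Il20rb (a subunit of interleukin-20 receptors), Tbxa2r (the thromboxane receptor) and P2ry14 (a receptor for UDP-sugars), with 11 to 34 reads per library. Pxdc1 and Tmem39b, whose roles are less clear, were beyond counting error in both comparisons, at 2.15, 3.53, 1.81 and 3.52 FPKM and at 3.14, 4.72, 2.92 and 4.66 FPKM. In both genes the 2 mutant libraries nearly coincided. Mpzl3, a membrane protein of the myelin protein zero family, had 8, 18, 6 and 14 reads in WT_1, TRKC+/-, WT_2 and AdNTF3-Tg, and Tmem220 had 8, 16, 7 and 16. Their log2 ratios were between 0.90 and 1.15, among the largest of the higher members, with intervals that included 0. Gm12191 had the largest ratio of all members in AdNTF3-Tg (3.71, interval 2.62 to 5.08), with 92.3 estimated reads there against 6.72 in WT_2, 3.26 in TRKC+/- and 1.48 in WT_1. In TRKC+/- it stood below WT_2 and counted as higher than WT_1 on 3.26 against 1.48 reads.

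Of the lower members with no common role, 3110009E18Rik and Gm6654 were past -1 in both comparisons, from few reads. 3110009E18Rik had 12, 5, 11 and 4 reads in WT_1, TRKC+/-, WT_2 and AdNTF3-Tg, and Gm6654, part of whose reads were divided with other genes, had 6.21, 2.06, 12.3 and 5.14. Teddm1b stood at 3.8, 1.36, 2.25 and 1.53 FPKM, and its log2 ratio in TRKC+/- was -1.42 (interval -2.14 to -0.87). The other members of this kind, among them Smim18, AB124611, Tmem37, Hrct1 and the C1q-related genes C1qtnf4 and C1qtnf7, stood between 0.68 and 7.33 FPKM in every library. The listed length of C1qtnf7 differed 1.25 times between libraries. From reads alone its log2 ratios were -0.45 in TRKC+/- and -0.28 in AdNTF3-Tg, both short of the limit.

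Many members were close to what the depth can show. A library held fewer than 10 reads for 37 of the 103 members, and 3 reads or fewer for 9. The median member had a mean of 25.9 reads, against 278 for all 12752 genes and 64.5 for those with a mean between 1 and 5 FPKM. At the limit itself, the last members on the higher side were Lcn2 (smaller ratio 0.50007) and Clec3b (0.501), a plasminogen-binding protein, while Shisa2 (0.498) and Snhg10 (0.498) were just outside. On the lower side, Snurf (-0.501) and Gm9866 (-0.512) were the last inside, and Chrm4 (-0.495) and Nhej1 (-0.496) were the first outside. Shisa2 had 101, 147, 97 and 144 reads in WT_1, TRKC+/-, WT_2 and AdNTF3-Tg, more than most members had. In the same order, Snhg10 had 10, 16, 12 and 17 reads, Gm9866 42, 33, 39 and 28, Chrm4 65, 43, 66 and 46, and Nhej1 24, 17, 33 and 22. The listed length of Gm9866 differed 1.15 times between libraries. From reads alone its log2 ratios were -0.38 in TRKC+/- and -0.46 in AdNTF3-Tg, both short of the limit.

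The order of the 4 libraries follows largely from the values that chose the members. Both mutant libraries lay above both wild-type libraries for 29 of the 34 higher members and below them for 62 of the 69 lower members. The corresponding shares over all genes were 16.0% above and 16.0% below, and nothing is read from the difference. With the wild-type libraries exchanged, all 4 ratios of a mutant to a wild-type library passed 0.5 for 14 of the 34 and for 39 of the 69. Of the 27 members beyond counting error in both comparisons, 15 passed all 4. Those that fell short against the other control were, in TRKC+/- against WT_2, Lyz2 (-0.48), Chrna1 (0.15), Cish (-0.30), Gm4262 (-0.37), 4732491K20Rik (-0.13) and Tcf7l1 (0.25), and in AdNTF3-Tg against WT_1, Dio2 (-0.33), Rpusd2 (-0.12), Sox8 (0.45), Slc27a3 (0.44), Ndufaf8 (0.40) and Pcdhgb7 (0.20). The wild-type libraries differed from each other by at least 0.5 on the log2 scale for 31 of the 103 members, which is 30.1%, against 7.26% of all genes, 19.4% of genes with a mean between 1 and 5 FPKM and 81.8% of the 110 genes that differed in opposite directions. The exchange changed the sign of 1 of the 2 ratios for 12 of the 103 members. This exchange used the same 4 libraries and is no independent measurement.

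**Figure D5:**
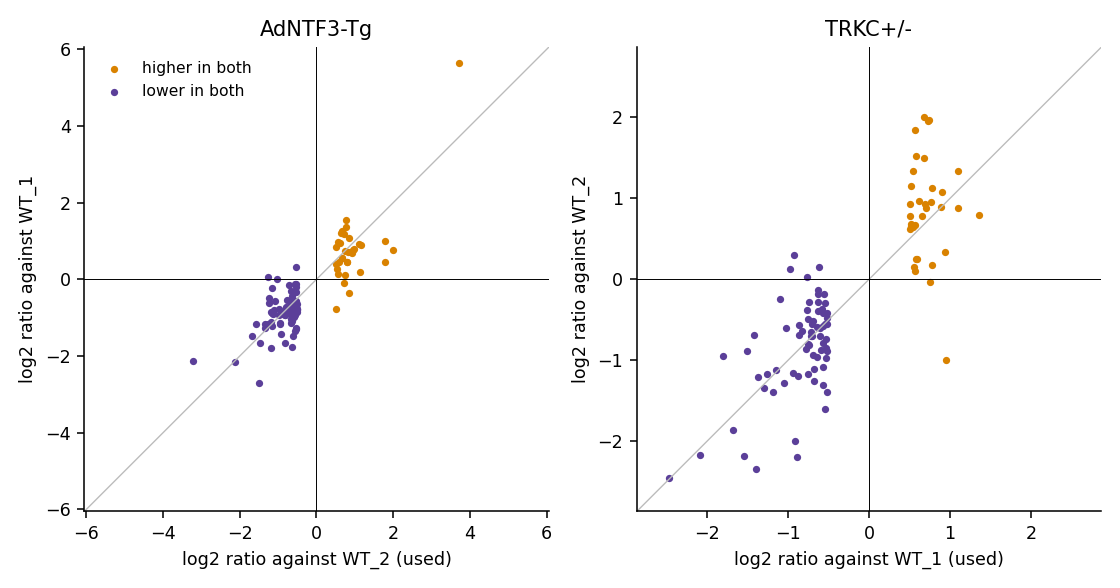
Log2 ratio of (FPKM + 0.1) of each member against the wild-type library of the rule (x axis) and against the other wild-type library (y axis), for AdNTF3-Tg (left) and TRKC+/- (right), with the line of equality. Points across the horizontal line changed sign: in the right panel Gm12191, at -0.99 against WT_2, lies farthest across it among the orange points, and Rnu1a1, at 0.31, among the purple ones.

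The members also shared features that the rule did not use directly. Their median transcript length was 1394 bases, against 2814 for all 12752 genes, and 36 of the 103 were shorter than 1000 bases, which is 35.0% against 7.50%. The share of genes lower in both was 4.17% below 500 bases, 2.33% from 500 to 1000, 0.920% from 1000 to 2000, 0.268% from 2000 to 4000 and 0.127% from 4000 to 8000, and the share higher in both went from 3.13% to 0.0318% over the same classes. The reads per gene went the other way, with a median of 168 below 500 bases and 397 from 4000 to 8000, and at equal FPKM a shorter transcript has fewer reads. The median log2 ratio of all genes also depended on length, from -0.20 in AdNTF3-Tg and -0.22 in TRKC+/- below 500 bases to 0.07 and 0.03 from 4000 to 8000 bases. With a trend on transcript length removed, 33 of the 34 higher and 52 of the 69 lower members stayed past the limits. Beyond this recomputation, the part of length in single members was not tested.

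Protein-coding members had a median of 5 exons when lower and 6 when higher, against 9 for all protein-coding genes of this level, and a transcript GC content of 53.0% and 54.4% against 50.6%. These values come from the longest GENCODE transcript matched by symbol, with 50 of 54 lower and 23 of 25 higher members matched. Of neighbouring members, 8 pairs were less than 1 Mb apart, 6 of them with 1 gene higher and 1 lower. Ttll3 and Rpusd3, both lower, were 727 bases apart. The count was not whole in at least 1 library for 17 members (16.5%), against 8.16% of all genes and 11.9% of those with a mean between 1 and 5 FPKM, and 25 members overlap another listed gene on either strand, whose reads cannot be told apart where the counting ignored strand. Listed lengths differed by more than 1.1 times between libraries for 9 members.

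Of 26 gene lists for cell types and pathways, 6 members were on at least 1: Lyz2 and Cd14 (macrophage), Elovl3 (adipocyte), Lcn2 (glucocorticoid response), Clec3b (fibroblast) and Ager (lung epithelium). Clec3b stood at 2.76, 4.14, 1.08 and 1.57 FPKM in WT_1, TRKC+/-, WT_2 and AdNTF3-Tg, so that AdNTF3-Tg lay below WT_1. Ager, the receptor for advanced glycation end products, stood at 1.5, 0.89, 1.31 and 0.78 FPKM from 10 to 19 reads. The interferon list, in which 17 of 38 genes were lower by at least 0.5 in AdNTF3-Tg and 5 were higher in TRKC+/-, held no member, nor did the lists of immediate early, heat shock, circadian, myelin and endothelial genes. The lists of potassium channel and lipid synthesis genes held none either, but they do not include the members Kcnk18 and Elovl3.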

How the data were processed

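Processed tables of 4 libraries were used, 1 for each group in the labels. Per the study's methods, poly(A) RNA was selected with oligo(dT) and sequenced from one end, and the authors cleaned the reads with SOAPnuke and mapped them with HISAT2 to mm9, while their processing notes name RSEM and the build mm10, so the build of the tables is uncertain. The coordinates of promoter windows and the distances between genes come from the reference, not from the tables. The authors deposited, per gene, an expected count, which is an estimate of reads, not normalized and not always whole, and an FPKM value, which scales it to library and transcript length. Whether counting used strand is not given in the sources used here.

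Symbols came from RefSeq (GRCm38.p6), which matched 17619 of 17667 identifiers and all 103 members. Log2 ratios used FPKM + 0.1 over the 15275 genes in all 4 tables, 12752 of them with a mean of at least 1 FPKM. Counts were rounded for the exact Clopper-Pearson 95% intervals, and neither these nor the floor of 3 reads allow for anything beyond the sampling of reads. All members may be named. Values in the 4 libraries are given at least for members beyond counting error in both comparisons, the 10 per direction with the largest smaller ratio, members on lists and genes at the limit. The members, lists and motifs were chosen with earlier results of these data known, and roles were assigned after the values were seen. Alternatives (pseudocounts, filters, scalings including edgeR's TMM, wild-type controls, cutoff) are in the closing section. Scripts used Python 3.11.15, scipy 1.17.1 and edgeR 4.0.16 and were tested on simulated data. Only genes with many more reads than most members were changed in that simulation, so it does not cover members with few reads.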

Additional observations from a re-analysis of the deposited data

How the results depend on the processing

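A pseudocount of 1 left 5 genes higher and 20 lower in both, no filter on FPKM gave 148 and 209, a mean of at least 5 FPKM left 2 and 10, a cutoff of 1 left 1 and 7, and a counting interval without 0 in both comparisons left 9 and 18. Under the other alternatives the counts stayed within 1.5 times of 34 and 69, but exchanging the wild-type libraries gave 27 and 74 genes of which 14 and 39 were members, and the mean of both wild-type libraries gave 36 and 85 of which 20 and 50 were. Ratios of expected counts gave 33 and 73, and removing a quadratic trend on log2 length gave 44 and 54, of which 33 and 52 were members, both chosen after the data were seen. For 44 members, 88 ratios were recomputed under 8 alternatives. These were the members beyond counting error in both comparisons, the 10 per direction with the largest smaller ratio and those on lists. Other members named above, such as Cyp2b10 and Cd52, were not among them. Of the 88, 5 changed sign with exchanged controls and 2 with the mean control; pseudocounts cannot change a sign, and centring and TMM scaling moved ratios too little to do so. A further 10 moved outside their counting interval without changing sign, 8 with exchanged controls (in AdNTF3-Tg Chrna1 at -1.30, Gm12191 at 5.65, Pcdhgb7 at 0.20 and Snurf at -0.80, and in TRKC+/- Clec3b at 1.85, Nedd1 at 0.80, Pcdhgb7 at 1.52 and Snurf at -0.56), 1 with the mean control (Pcdhgb7 in AdNTF3-Tg, 0.60) and 1 with a pseudocount of 1 (Dio2 in TRKC+/-, -0.60). With exchanged controls the 5 were, in TRKC+/-, 0610040B10Rik (-0.033), Chrna1 (0.15), Gm12191 (-0.99) and Rnu1a1 (0.31) and, in AdNTF3-Tg, Clec3b (-0.78). With the mean control they were Gm12191 in TRKC+/- (-0.33) and Clec3b in AdNTF3-Tg (-0.27). Over all 103 members, exchanged controls changed a sign in 12, the other 7 being Klhl41 (0.13) and Vmn2r-ps129 (0.025) in TRKC+/- and Rpusd3 (0.33), Rec114 (-0.36), Tbxa2r (-0.08), 5730408K05Rik (0.05) and Tac2 (0.01) in AdNTF3-Tg. The cause was not tested. No paired analysis was possible because each group has 1 library. Depth limits the members, of which 37 of 103 have under 10 reads in a library.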
